A study of Homo sapiens with 18 samples.

Results

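A10 is 1 of 3 lines of HEK cells labelled as knockouts of ATXN1L, and its 3 arrays were set against the 6 arrays of the other 2 such lines, A30 and B21, so that 9 of the 18 arrays in the series enter the comparison. HEK is an established human line derived from embryonic kidney. A10, A30 and B21 are all CRISPR-edited, puromycin-selected and grown from single colonies, so each is 1 clone and carries whatever else that clone carried. The reference lines are wild type for ATXN1L: N4 and N8, which are CRISPR controls, and the parental HEK line, for which the labels give the same CRISPR treatment. Each of the 6 lines has 3 biological replicates grown in serum-supplemented medium, and no drug or time course distinguishes the groups. Total RNA was measured on an Affymetrix array, and all values below are log2 expression, so a difference of 1 is a doubling. A gene was taken as separating A10 when limma put it below an adjusted p of 0.05 against A30 and against B21 in the same direction. The tests measure the spread between replicates of a line, and with 1 line on one side and 2 on the other there is no test at the level of independent clones.

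ATXN1L encodes a paralogue of ataxin 1. Both proteins bind CIC, an HMG-box repressor of genes that receptor tyrosine kinase and MAPK signalling turn on, and ATXN1L is known to stabilise CIC. Loss of ATXN1L lowers CIC protein and derepresses CIC targets, among them the PEA3 group of ETS factors and DUSP phosphatases. Clones of one genotype share the edited gene but not the rest of their history, which is the question that a comparison of A10 with A30 and B21 addresses.

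One A10 array stands apart and touches every result. After each gene was centred on its mean over the 18 arrays, A10 replicate 1 correlated with A10 replicates 2 and 3 at 0.0141 to 0.135, whereas replicates 2 and 3 correlated with each other at 0.645. Its correlation reached 0.395 with an N4 array and 0.377 with a parental array, above that with either array of its own line. With the A30 arrays it lay between -0.459 and -0.202, and with the B21 arrays between -0.449 and -0.197. Taken as deviations from line means, A10 replicate 1 correlated with replicate 1 of each other line. The values were 0.324 for parental, 0.35 for N4, 0.366 for N8, 0.221 for A30 and 0.275 for B21. The part of replicate number in the likeness of A10 replicate 1 to N4 and parental arrays was not tested. The median over genes of the SD within a line was 0.114 in A10, against 0.11 in A30 and 0.095 in B21, and it was 0.064 between A10 replicates 2 and 3 alone. That last value is over 2 arrays and the others over 3, so it is not directly comparable with them. No 2-array value was computed for A30 or B21. Array medians ran from 5.09 to 5.18 over the 18 arrays. The labels give nothing further by which the identity of this array could be checked, and whether it is an A10 culture was not tested. The leading counts are given with and without it.

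The target gene itself did not separate A10. ATXN1L read 7.20, 7.44 and 7.46 in A10, against 7.43, 7.31 and 7.42 in A30 and 7.43, 7.41 and 7.61 in B21. The lines overlap, with an A10 difference of -0.02 ± 0.08 from A30 (SE, limma adjusted p = 0.897) and -0.12 ± 0.08 from B21 (adjusted p = 0.386). The wild-type line means were 7.11 to 7.21, so ATXN1L RNA was not lower in any line labelled as a knockout, and in A30 and B21 it was above the wild-type lines by 0.22 (adjusted p = 0.0160) and 0.32 (adjusted p = 0.00312). Where the edit lies relative to the array's probes is not stated in the labels, so RNA level does not check the knockout label. CIC differed from A30 by -0.08 ± 0.08 (adjusted p = 0.528) and from B21 by -0.00 ± 0.08 (adjusted p = 0.984). ATXN1, which also binds CIC, differed by -0.15 ± 0.14 (adjusted p = 0.479) and -0.34 ± 0.14 (adjusted p = 0.118).

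Of the HEK and kidney lineage markers, the kidney progenitor transcription factor genes SIX2, PAX2, LHX1 and EYA1 and the mesenchymal filament gene VIM passed the filter on dim genes, 5 of the 5 that have a named probe set. Their summed level, given as the mean over the list, was 6.93 to 7.05 in A10 arrays, against 7.11 to 7.14 in A30 and 7.03 to 7.08 in B21. That mean hides differences between members. EYA1 averaged 7.4 in A10, against 8.21 in A30 and 7.83 in B21, and was called lower than both without A10 replicate 1. VIM and PAX2 also averaged lower in A10 than in both lines, and SIX2 and LHX1 higher. The fibroblast list averaged 4.37 to 4.54 in A10, 4.31 to 4.47 in A30 and 4.69 to 4.73 in B21. Means for the keratinocyte list were 3.90 to 4.29, 4.09 to 4.18 and 4.17 to 4.27 in A10, A30 and B21. Those for the leukocyte list were 5.05 to 5.34, 5.40 to 5.45 and 5.33 to 5.41, and for the endothelial list 4.73 to 5.09, 4.97 to 5.06 and 4.99 to 5.15, in the same order of lines. Only 4 members of those lists passed the filter (LUM, THY1, CD68 and CLDN5), and none of them separated A10 from both lines. The defining markers DCN, KRT5 and PECAM1 stayed below the filter value of 5.6 in mean level in each line.

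Against A30, 2120 of 9686 tested genes were called (21.9%), 1145 higher in A10 (11.8%) and 975 lower (10.1%). Against B21, 1271 were called (13.1%), 540 higher (5.58%) and 731 lower (7.55%). These 2 comparisons share the A10 arrays, so they are not independent of each other. Both calls, in the same direction, were met by 740 genes (7.64%), of which 333 were higher in A10 (3.44%) and 407 lower (4.20%). Without A10 replicate 1 the number was 733 (7.57%), 313 higher (3.23%) and 420 lower (4.34%). The same call was made with and without that array for 530 genes (5.47%), 245 higher (2.53%) and 285 lower (2.94%), while 210 were called only with it and 203 only without it. At the edge of the threshold, the ephrin receptor gene EPHA4 lay just inside with a larger adjusted p of 0.04986, and LZTR1 just outside with 0.05002.

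Counted by raw values alone, all 3 A10 arrays lay above all 6 A30 and B21 arrays in 725 genes (7.49%) and below all 6 in 847 (8.74%). Among the called genes that was so for 317 of the 333 higher and 380 of the 407 lower ones. Most differences were small. Taking for each gene the smaller of its 2 differences, the median was 0.37 for the higher genes and 0.363 for the lower ones, and at least a 1.5-fold difference from both lines was found for 53 higher and 57 lower genes. A difference of at least 1 on the log2 scale from both lines was met by 4 higher and 14 lower genes.

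**Figure D1:**
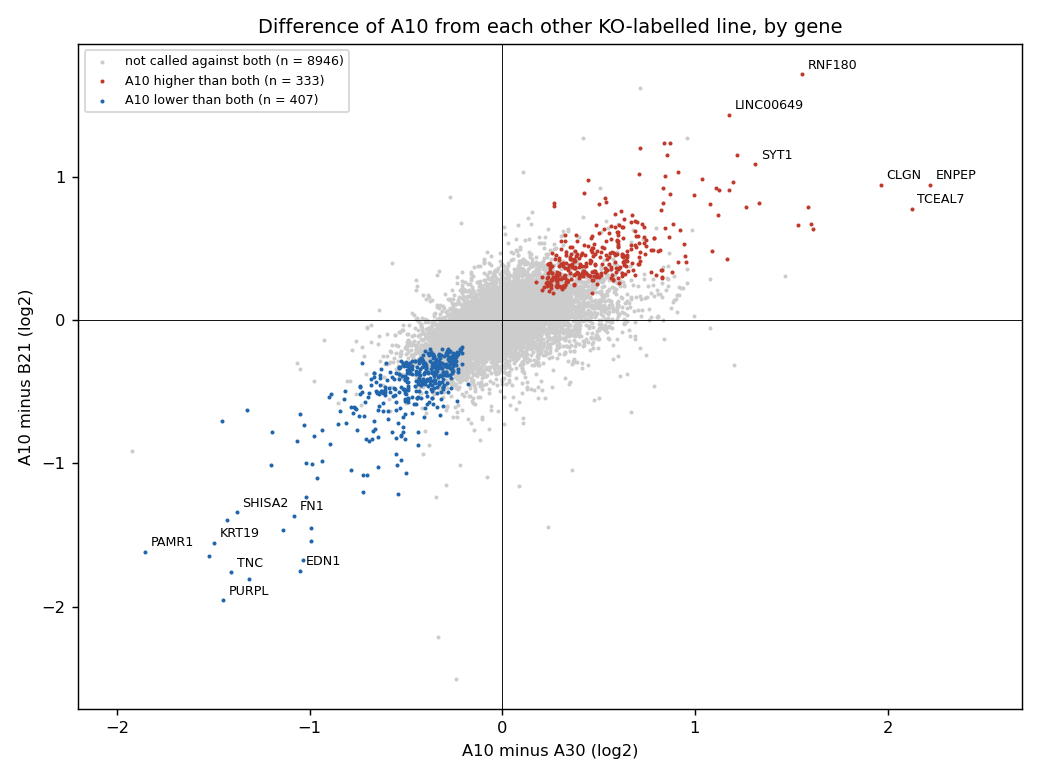
Difference of A10 from A30 (x axis, log2) and from B21 (y axis, log2) for each of the 9686 tested genes, with the 333 genes higher and the 407 genes lower than both lines coloured. The lower group reaches further along both axes at once, with PAMR1, PURPL, TNC and KRT19 at its end, while ENPEP, CLGN and TCEAL7 differ more from A30 than from B21.

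The 12 lower genes with the largest differences are described first. TNC, which encodes the matrix glycoprotein tenascin C, read 6.55, 6.58 and 6.69 in A10, against 8.16, 7.91 and 7.97 in A30 and 8.52, 8.23 and 8.35 in B21. No array of A10 came within 1 log2 unit of either line, and the wild-type line means, at 6.09 to 6.40, lay below A10. The differences were -1.41 ± 0.10 from A30 (SE, limma adjusted p = 2.72e-07) and -1.76 ± 0.10 from B21 (adjusted p = 1.32e-08). FN1, which encodes fibronectin, read 9.14, 8.99 and 8.99 in A10, against 10.28, 10.06 and 10.02 in A30 and 10.57, 10.27 and 10.37 in B21. Its groups do not overlap, and its differences were -1.08 ± 0.24 (adjusted p = 0.00439) and -1.36 ± 0.24 (adjusted p = 0.00147). As with TNC, the wild-type means (8.34 to 8.78) were below A10, so that A10 lay between the wild-type lines and the other knockout lines.

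PAMR1 encodes a secreted protein with CUB and EGF-like domains and a protease-like domain. Its values were 5.10, 5.54 and 5.62 in A10, against 7.15, 7.28 and 7.39 in A30 and 6.95, 7.06 and 7.10 in B21. The groups are more than 1 log2 unit apart, and A10 differed by -1.85 ± 0.12 (adjusted p = 4.89e-08) and -1.62 ± 0.12 (adjusted p = 2.78e-07). MMP13, the gene of a secreted collagenase, read 3.81, 4.27 and 4.39 in A10, against 5.72, 5.57 and 5.75 in A30 and 5.84, 5.91 and 5.65 in B21. All 3 A10 values are below the filter value of 5.6, and so are the wild-type line means of 4.12 to 4.65. The differences were -1.52 ± 0.19 and -1.64 ± 0.19 (SE). MMP13 reached the filter value in A30 and B21 arrays alone, so a gene like it entered the test only by being high there, and its p is not given as support. Without the A30 and B21 arrays 13 of the 407 lower genes would not have passed the filter, EDN1, DUSP5 and BMP5 among them, and without the A10 arrays 3 of the 333 higher ones would not.

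MMP16 encodes a membrane-anchored metalloproteinase. It read 6.23, 5.29 and 5.24 in A10, against 6.97, 6.98 and 7.10 in A30 and 6.97, 6.88 and 7.10 in B21. All 3 A10 arrays were low, replicate 1 the least so, and A10 was also below the wild-type line means of 6.95 to 7.18. Its differences were -1.43 ± 0.17 (adjusted p = 2.51e-05) and -1.40 ± 0.17 (adjusted p = 6.33e-05). CD44, the hyaluronan receptor gene, read 6.26, 5.74 and 5.87 in A10, against 7.03, 6.87 and 7.07 in A30 and 7.49, 7.64 and 7.76 in B21. The wild-type line means, 6.34 to 6.72, fell between the A10 arrays and the others. A10 differed by -1.03 ± 0.13 (adjusted p = 2.58e-05) and -1.67 ± 0.13 (adjusted p = 3.05e-07).

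KRT19, which encodes a simple epithelial keratin, read 6.22, 5.91 and 6.03 in A10, against 7.46, 7.71 and 7.48 in A30 and 7.59, 7.67 and 7.56 in B21. Its arrays were tight within each line, and the differences were -1.50 ± 0.12 (adjusted p = 5.24e-07) and -1.55 ± 0.12 (adjusted p = 3.50e-07). SHISA2 encodes an endoplasmic reticulum protein that holds back Wnt and FGF receptors. It read 7.81, 7.86 and 7.81 in A10, against 9.34, 9.16 and 9.11 in A30 and 9.13, 9.16 and 9.21 in B21. Among the 12 largest lower genes it varied least within A10, and its differences were -1.38 ± 0.07 (adjusted p = 1.34e-09) and -1.34 ± 0.07 (adjusted p = 4.16e-09).

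MYOF, the gene of the membrane repair protein myoferlin, and EDN1, the gene of endothelin 1, were lowest in A10 replicate 1. MYOF read 6.81, 7.77 and 7.86 in A10, against 8.67, 8.83 and 8.89 in A30 and 8.94, 9.45 and 9.47 in B21. EDN1 read 4.33, 5.14 and 5.22 in A10, against 5.67, 5.89 and 6.28 in A30 and 6.27, 6.74 and 6.92 in B21. The differences from A30 and B21 were -1.32 and -1.81 for MYOF and -1.05 and -1.75 for EDN1, and both genes kept their calls without replicate 1. EDN1 is another gene that passed the filter through A30 and B21 alone.

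PURPL and DPYD show the opposite disagreement between A10 arrays. PURPL, a p53-induced long non-coding RNA, read 8.27, 6.12 and 6.34 in A10, against 8.68, 8.12 and 8.28 in A30 and 9.22, 8.65 and 8.72 in B21. Replicate 1 lay inside the range of the A30 arrays and replicates 2 and 3 far below it. The differences were -1.45 ± 0.40 (adjusted p = 0.0147) and -1.95 ± 0.40 (adjusted p = 0.00379) with all arrays, and -2.13 and -2.63 without replicate 1. The larger adjusted p passed the threshold when A10 replicate 2 (0.0803), A10 replicate 3 (0.0752) or A30 replicate 1 (0.0612) was left out. DPYD, which encodes the first enzyme of pyrimidine breakdown, read 6.06, 4.13 and 4.70 in A10, against 6.13, 6.10 and 6.08 in A30 and 6.40, 6.49 and 6.40 in B21. Its differences were -1.14 ± 0.29 (adjusted p = 0.00943) and -1.47 ± 0.29 (adjusted p = 0.00323), with -1.69 and -2.02 without replicate 1 and -0.72 from A30 without A10 replicate 2.

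**Figure D2:**
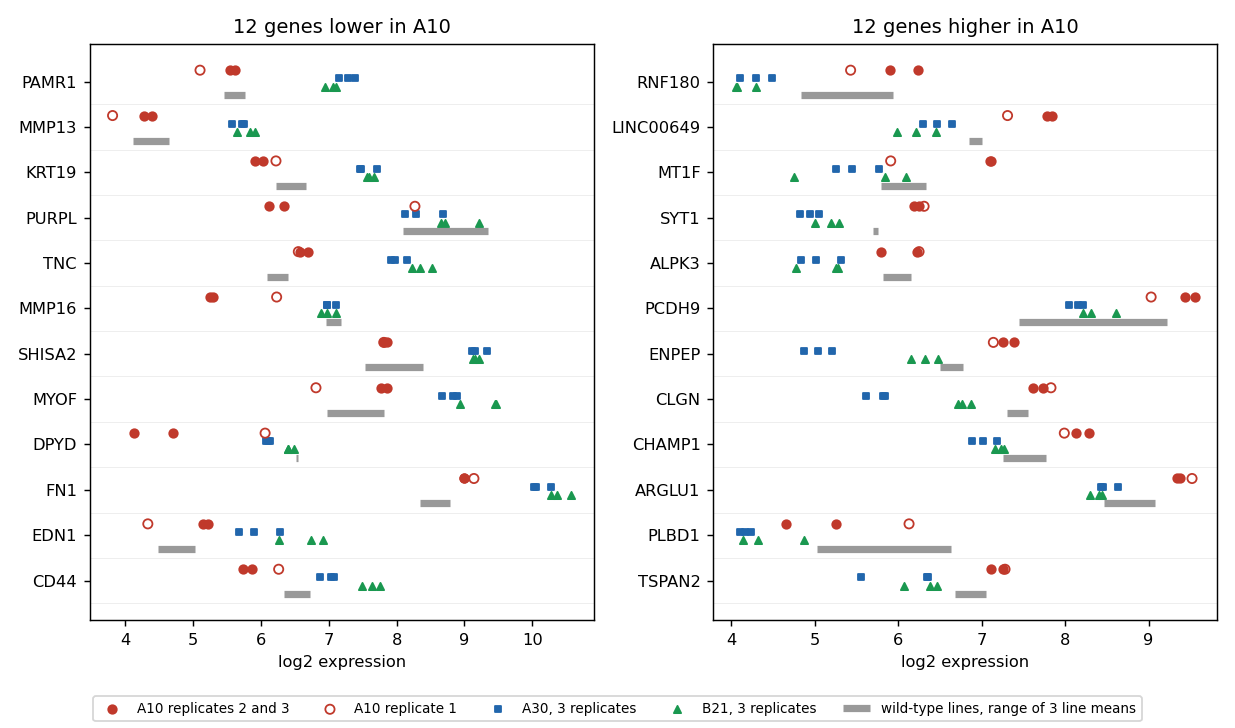
log2 expression (x axes) of the 12 lower and the 12 higher genes with the largest differences from both lines, 1 point per array for A10 (replicate 1 open), A30 and B21, with the range of the 3 wild-type line means as a grey bar. TNC, FN1, KRT19 and SHISA2 have their A10 arrays together below every A30 and B21 array, whereas PURPL and DPYD have replicate 1 apart from replicates 2 and 3.

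The higher genes have fewer large differences. RNF180, which encodes a membrane-bound E3 ubiquitin ligase, read 5.43, 5.90 and 6.24 in A10, against 4.49, 4.30 and 4.11 in A30 and 4.07, 4.30 and 4.06 in B21. No A10 array overlapped the others, and the differences were 1.56 ± 0.16 (adjusted p = 6.69e-06) and 1.71 ± 0.16 (adjusted p = 3.12e-06). The wild-type line means spread widely, between 4.84 and 5.94. LINC00649, a long non-coding RNA gene, read 7.31, 7.78 and 7.84 in A10, against 6.64, 6.46 and 6.30 in A30 and 6.45, 5.98 and 6.21 in B21. It was higher in A10 by 1.18 ± 0.15 (adjusted p = 3.56e-05) and 1.43 ± 0.15 (adjusted p = 9.61e-06), with wild-type means of 6.85 to 7.0 between the groups.

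SYT1, the gene of synaptotagmin 1, a calcium sensor for vesicle release, read 6.31, 6.19 and 6.25 in A10, against 4.94, 5.05 and 4.82 in A30 and 5.29, 5.00 and 5.20 in B21. The A10 arrays lay within a narrow band above all others, with differences of 1.31 ± 0.11 (adjusted p = 7.59e-07) and 1.09 ± 0.11 (adjusted p = 7.13e-06). The wild-type means, 5.69 to 5.76, lay between. ENPEP encodes aminopeptidase A, which cleaves angiotensin II and is found on kidney epithelium. It read 7.14, 7.25 and 7.39 in A10, against 4.87, 5.21 and 5.04 in A30 and 6.48, 6.15 and 6.32 in B21. A10 was highest, and A30 was also well below B21, so the difference was 2.22 ± 0.12 from A30 (adjusted p = 2.16e-09) but 0.94 ± 0.12 from B21 (adjusted p = 5.80e-05). The same order held for CLGN, the gene of calmegin, a chaperone of the endoplasmic reticulum, at 7.83, 7.62 and 7.73 in A10, 5.82, 5.62 and 5.84 in A30 and 6.87, 6.76 and 6.72 in B21. Its differences were 1.97 ± 0.09 (adjusted p = 8.34e-10) and 0.94 ± 0.09 (adjusted p = 3.88e-06).

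PCDH9, CHAMP1 and ARGLU1 lie on chromosome 13. PCDH9, a protocadherin gene, read 9.03, 9.43 and 9.55 in A10, against 8.21, 8.05 and 8.15 in A30 and 8.61, 8.21 and 8.31 in B21. CHAMP1, whose protein acts in chromosome alignment at mitosis, read 7.99, 8.29 and 8.13 in A10, against 6.89, 7.01 and 7.18 in A30 and 7.23, 7.16 and 7.27 in B21. ARGLU1, which encodes a splicing and transcription cofactor, read 9.52, 9.34 and 9.38 in A10, against 8.43, 8.45 and 8.63 in A30 and 8.44, 8.41 and 8.30 in B21. For each of the 3 genes all A10 arrays were above all others. The differences were 1.20 and 0.96 for PCDH9, 1.11 and 0.92 for CHAMP1 and 0.91 and 1.03 for ARGLU1. After each gene was centred on its 41 neighbouring genes along the chromosome, CHAMP1 stood at 0.49 and 0.29 and lost its call against B21 (adjusted p = 0.0737), whereas ARGLU1 kept both at 0.46 and 0.52.

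Of the other large higher genes, ALPK3, an alpha-kinase gene, read 6.25, 5.79 and 6.22 in A10, against 4.83, 5.31 and 5.01 in A30 and 5.25, 5.28 and 4.78 in B21. TSPAN2, a tetraspanin gene, read 7.28, 7.11 and 7.25 in A10, against 6.34, 5.56 and 6.36 in A30 and 6.47, 6.38 and 6.07 in B21. Both genes were higher in every A10 array, by 1.04 and 0.98 for ALPK3 and by 1.13 and 0.91 for TSPAN2. The calls of MT1F and PLBD1 rested on single arrays. MT1F, a metallothionein gene, read 5.91, 7.11 and 7.10 in A10, against 5.45, 5.77 and 5.25 in A30 and 4.75, 5.84 and 6.09 in B21, so that A10 replicate 1 lay within the range of B21. Its call was lost in 6 of 9 fits that left out 1 array (A10 replicate 2 or 3, A30 replicate 1 or 3, or B21 replicate 1 or 2), with a larger adjusted p of up to 0.182 without B21 replicate 1, where the difference from B21 was 0.74. PLBD1, a phospholipase B-like gene, read 6.13, 4.66 and 5.26 in A10, against 4.17, 4.11 and 4.24 in A30 and 4.32, 4.14 and 4.87 in B21. Its differences of 1.18 and 0.91 became 0.79 and 0.52 without A10 replicate 1 (larger adjusted p = 0.0724), and the larger adjusted p was 0.0691 without B21 replicate 1 and 0.104 without B21 replicate 2.

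Of these 24 genes, 23 kept their call without A10 replicate 1, PLBD1 being the exception, and 22 kept it after centring on neighbouring genes, CHAMP1 and MT1F being the exceptions. Over all 740 called genes, 530 kept their call without A10 replicate 1 and 259 after centring. The 24 were chosen for the largest differences in these same arrays, so their kept calls are no separate check. Of the 12 higher genes, 10 were called in every fit that left out 1 array, and of the 12 lower genes 11 were, PURPL being the exception. MMP13 and EDN1 are in these counts. Both passed the filter through A30 and B21 alone, so their calls are not given as support.

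Of 301 microRNA genes tested, 1 separated A10 from both lines, MIR221 (0.332%, against 7.64% of all tested genes). MicroRNA genes were thus called less often here than tested genes in general. Of 1098 with a probe set, 301 passed the filter on dim genes. The SE of MIR221 was 0.19, against a median of 0.099 over all tested genes. The part of precision and low signal in this low share was not tested. Without A10 replicate 1, 3 were lower and 1 higher. MIR221 encodes miR-221-3p, which shares its seed with miR-222-3p from a neighbouring gene on chromosome X. The mature sequences are shown because a shared seed means overlapping predicted targets. They were taken from RefSeq (GRCh38.p14), where they lie on the minus strand at chrX:45746180-45746202 and chrX:45747036-45747056, and capitals mark the seed, bases 2 to 8.
hsa-miR-221-3p: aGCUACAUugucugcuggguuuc
hsa-miR-222-3p: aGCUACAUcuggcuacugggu
MIR221 read 7.15, 8.22 and 8.15 in A10, against 8.75, 8.46 and 8.87 in A30 and 8.59, 8.50 and 8.61 in B21. Every A10 array was below the others, replicate 1 by far the most. The differences were -0.85 ± 0.19 (adjusted p = 0.00442) and -0.73 ± 0.19 (adjusted p = 0.0193), shrinking to -0.51 and -0.38 without A10 replicate 1, where the call was kept. The larger adjusted p was 0.0517 without B21 replicate 1 and 0.0633 without B21 replicate 3. MIR222, named after its values were seen, read 6.23, 5.37 and 6.07 in A10, against 7.65, 6.07 and 6.23 in A30 and 7.01, 6.39 and 5.82 in B21. Its arrays overlap, with differences of -0.76 ± 0.40 (adjusted p = 0.193) and -0.52 ± 0.40 (adjusted p = 0.448). The array reads gene or precursor RNA of both, and the level of the mature form was not measured separately here.

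Genes that CIC is known to repress were read as a list of 20, of which 13 were tested. DUSP5, a nuclear ERK phosphatase gene, was called lower in A10 than in both lines, which is 1 of 13 against 4.20% of all tested genes, and no member was higher. No member was called without A10 replicate 1. The median A10 difference from the mean of A30 and B21 was -0.208 over the list (-0.172 without that array), against -0.0083 over all tested genes. DUSP5 read 4.40, 5.29 and 5.54 in A10, against 5.99, 6.01 and 6.03 in A30 and 5.97, 6.38 and 5.83 in B21, with wild-type means of 4.93 to 5.10. All A10 arrays were below all others, and the differences were -0.93 ± 0.29 and -0.98 ± 0.29 (SE), for a gene that passed the filter through A30 and B21 alone. Without A10 replicate 1 they were -0.59 and -0.65 (larger adjusted p = 0.154), and the call was lost in 7 of the 9 fits that left out 1 array, those without A10 replicate 1 or without any single array of A30 or B21. Neighbour centring also ended it, at -0.80 and -0.84. ETV4, a PEA3-group ETS factor, averaged 6.34 in A10, against 6.93 in A30 and 6.89 in B21, with adjusted p = 0.132 and 0.202. ETV1 averaged 5.93 in A10, against 5.93 in A30 and 6.34 in B21, with adjusted p = 0.994 and 0.199. Among the 7 tested genes of the CIC complex list limma called none against both lines, and 1 was higher and 0 lower at an unadjusted p under 0.05 against each. The share of all tested genes at that unadjusted threshold was not computed, so this count only describes the list.

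Early-response genes downstream of MAPK signalling had 4 of 14 tested members lower, against 4.20% of all tested genes, and none higher. The list median was -0.288, and -0.236 without A10 replicate 1. Without that array 4 were again lower, but IER3 had left the calls and the AP-1 gene JUN had joined them, at -0.38 from the mean of A30 and B21 (-0.18 with all arrays). JUN was named after its values were seen. JUNB, an AP-1 subunit gene, read 6.68, 6.68 and 6.71 in A10, against 7.22, 7.18 and 7.20 in A30 and 7.21, 6.95 and 6.88 in B21. IER2, an immediate early gene, read 6.50, 6.60 and 6.55 in A10, against 7.09, 7.15 and 7.09 in A30 and 6.95, 7.05 and 7.08 in B21. Neither gene overlapped the other lines, and their differences were -0.51 and -0.32 for JUNB and -0.56 and -0.48 for IER2. Both lie on chromosome 19, and after neighbour centring they stood at -0.30 and -0.18 for JUNB (larger adjusted p = 0.195) and -0.38 and -0.34 for IER2 (larger adjusted p = 0.0528). IER3, a stress-responsive early gene, differed by -0.52 and -0.97, and by -0.34 and -0.79 without A10 replicate 1, where its call was lost. The larger adjusted p was 0.110 without A10 replicate 1, 0.0661 without A30 replicate 2 and 0.0685 without A30 replicate 3. KLF6, a zinc finger factor gene, was the other lower member.

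Of 14 tested extracellular matrix genes, 4 were lower and none higher, with and without A10 replicate 1, against 4.20% of all tested genes lower (4.34% without it). They were TNC, FN1, NID2 (nidogen 2, a basement membrane protein) and EDIL3 (an integrin-binding secreted protein), and the list median was -0.133, or -0.067 without replicate 1. EDIL3 read 8.34, 8.64 and 8.64 in A10, against 9.18, 8.98 and 9.04 in A30 and 9.0, 8.97 and 9.05 in B21. Its differences of -0.53 ± 0.11 (adjusted p = 0.00191) and -0.47 ± 0.11 (adjusted p = 0.00775) left A10 between these lines and the wild-type means of 7.75 to 8.0.

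Axon guidance ligands and receptors had 7 of 25 tested members lower and none higher, against 4.20% of all tested genes lower. With A10 replicate 1 left out, 3 were lower. The median was -0.097 with all arrays and -0.15 without that array. SLIT3, a secreted ligand of ROBO receptors, read 5.78, 5.69 and 5.78 in A10, against 7.06, 6.42 and 6.58 in A30 and 6.48, 6.48 and 6.59 in B21. Every A10 array was below every array of both lines, and the differences were -0.94 ± 0.13 (adjusted p = 0.000114) and -0.77 ± 0.13 (adjusted p = 0.00128). The others called with all arrays were the ephrin receptor gene EPHA4, the plexin genes PLXNA1, PLXNA2, PLXNA4 and PLXND1, and the neuropilin gene NRP2. Those that kept their call without A10 replicate 1 were SLIT3, PLXNA1 and PLXND1. PLXNA1 differed by -0.40 and -0.50, and neighbour centring ended its call against A30, at -0.26 (adjusted p = 0.116).

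BMP, TGF-beta and Wnt signalling genes had 5 of 21 tested members lower and none higher, against 4.20% of all tested genes lower, and 4 lower without A10 replicate 1. The median was -0.145, and -0.08 without that array. BMP5, a ligand, read 4.50, 4.94 and 4.73 in A10, against 5.62, 5.63 and 5.90 in A30 and 6.45, 6.16 and 6.18 in B21. Its A10 arrays were also below the wild-type line means of 5.00 to 5.28, and its differences were -0.99 ± 0.19 and -1.54 ± 0.19 (SE). BMP5 also passed the filter on dim genes through A30 and B21. BMP2, another ligand, read 6.72, 7.80 and 7.78 in A10, against 8.18, 8.0 and 8.05 in A30 and 8.23, 8.22 and 8.29 in B21. Replicate 1 set much of its difference, which was -0.64 and -0.81 with all arrays and -0.29 and -0.46 without it, and the call was lost without A10 replicate 1 or without any 1 of the A30 arrays (larger adjusted p of 0.102 without A10 replicate 1 and 0.0951 without A30 replicate 1). GREM1, a secreted BMP antagonist gene, read 6.60, 6.56 and 6.61 in A10, against 7.27, 7.16 and 7.20 in A30 and 6.95, 7.28 and 7.44 in B21. It differed by -0.62 ± 0.15 (adjusted p = 0.00747) and -0.63 ± 0.15 (adjusted p = 0.0106), with a larger adjusted p of 0.0623 when B21 replicate 3 was left out. SFRP1, a secreted Wnt antagonist gene, and the R-spondin receptor gene LGR4 were the other lower members.

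Among genes responsive to YAP and SRF the calls and the median depended on A10 replicate 1. With all arrays 3 of 13 were lower, against 4.20% of all tested genes, and none higher, with a median of -0.303. The lower members were EDN1, the actin-linker gene VCL and the YAP partner gene TEAD1. Of these, EDN1 passed the filter through A30 and B21 alone. Without replicate 1, 1 was lower and 2 were higher, and the median was 0.048. TAGLN, which encodes the actin-binding protein transgelin, read 5.47, 6.60 and 6.51 in A10, against 5.53, 5.72 and 5.30 in A30 and 5.46, 5.52 and 5.71 in B21. TPM1, a tropomyosin gene, read 7.04, 7.65 and 7.63 in A10, against 6.92, 6.87 and 6.98 in A30 and 7.06, 7.18 and 7.20 in B21. In both, replicate 1 lay with the other lines and replicates 2 and 3 above them. Their differences without replicate 1 were 1.04 and 0.99 for TAGLN and 0.72 and 0.49 for TPM1. VCL differed by -0.40 and -0.31 with all arrays and by -0.25 and -0.16, with no call, without replicate 1, and it lost its call without any 1 of the B21 arrays too, with a larger adjusted p of up to 0.0877. TEAD1, at -0.25 and -0.35, lost its call without A10 replicate 1 or 2 or A30 replicate 2 or 3, with a larger adjusted p of up to 0.113. Neighbour centring ended the calls of both VCL and TEAD1.

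**Figure D3:**
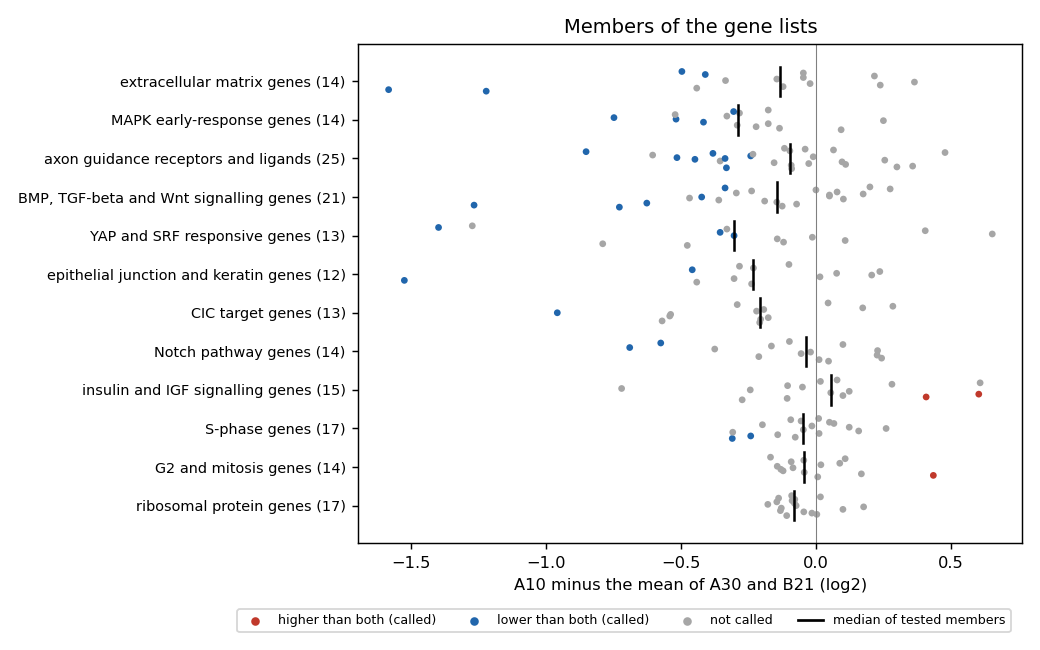
A10 minus the mean of A30 and B21 (x axis, log2) for each tested member of 12 gene lists (rows, number tested in brackets), coloured where A10 was called against both lines, with a bar at the list median. Called members of the matrix, MAPK early-response, axon guidance and BMP lists all lie to the left, and the insulin and IGF list has 2 called members to the right.

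For the next lists, the shares over all tested genes were 4.20% lower and 3.44% higher (4.34% and 3.23% without A10 replicate 1). Among 12 tested epithelial junction and keratin genes 2 were lower and none higher, KRT19 and the desmosome gene DSP, with and without A10 replicate 1. DSP read 9.77, 9.83 and 9.94 in A10, against 10.34, 10.25 and 10.31 in A30 and 10.33, 10.32 and 10.28 in B21, a small difference with no overlap. Of 14 Notch pathway genes 2 were lower and none higher, also a count of 2 without that array. HEY2, a Notch target repressor gene, read 7.76, 7.57 and 7.75 in A10, against 8.42, 8.47 and 8.46 in A30 and 8.25, 8.35 and 8.35 in B21, or -0.76 ± 0.07 (adjusted p = 1.21e-06) and -0.62 ± 0.07 (adjusted p = 9.88e-06). The coactivator gene MAML2, at -0.64 and -0.51, lost its call without A10 replicate 2 or 3 or any 1 of the B21 arrays (larger adjusted p up to 0.152) and after neighbour centring. VLDLR, a lipoprotein receptor gene, was the lower member among 11 genes of the unfolded protein and amino acid stress list, at -0.53 and -0.80. Without A10 replicate 1 that list had 3 higher and 2 lower members. HMGCS1, an enzyme gene of cholesterol synthesis, was the lower one of 9 in its list, at -0.54 and -0.41.

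Insulin and IGF signalling genes had 2 of 15 tested members higher, against 3.44% of all tested genes, and none lower, with 1 higher without A10 replicate 1. The list median was 0.055, and 0.002 without that array. IRS2, an insulin receptor substrate gene on chromosome 13, read 8.47, 8.65 and 8.71 in A10, against 7.88, 7.93 and 7.96 in A30 and 8.0, 8.09 and 8.18 in B21. All A10 arrays were higher than all others, by 0.69 ± 0.07 (adjusted p = 8.03e-06) and 0.52 ± 0.07 (adjusted p = 0.000218), and the wild-type means were 7.49 to 7.76. With neighbouring genes centred the differences were 0.24 and 0.03, and the call against B21 was gone (adjusted p = 0.872). IGF2R, the IGF2 clearance receptor gene, read 8.89, 8.69 and 8.85 in A10, against 8.33, 8.36 and 8.31 in A30 and 8.57, 8.39 and 8.45 in B21. It differed by 0.48 and 0.34, lost its call without A10 replicate 1 or 3 or B21 replicate 2 or 3 (larger adjusted p up to 0.0746) and lost it after neighbour centring. IFIH1, the gene of the RNA sensor MDA5, was the higher one of 5 interferon-stimulated genes (1 higher and 1 lower without A10 replicate 1), at 5.50, 5.59 and 5.56 in A10, against 4.47, 4.15 and 4.03 in A30 and 4.65, 4.77 and 4.79 in B21. All of these IFIH1 values are below the filter value of 5.6.

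Counts in the proliferation and housekeeping lists stand against 3.44% of all tested genes higher and 4.20% lower. Without A10 replicate 1 those shares were 3.23% and 4.34%. Of 17 S-phase genes 2 were lower, the replicative helicase genes MCM2 (-0.33 and -0.29) and MCM4 (-0.28 and -0.20), and of 14 genes of G2 and mitosis 1 was higher, the cyclin gene CCNB2 (0.46 and 0.41). All 3 calls were lost when neighbouring genes were centred, and that of MCM4 also without A10 replicate 2 or 3 or any 1 of the B21 arrays (larger adjusted p up to 0.116). Limma called none of 17 ribosomal protein genes and none of 22 small nucleolar RNA genes against both lines, and at an unadjusted p under 0.05 against each line 0 and 1 were lower and none higher. The shares above are for adjusted calls, and none was computed at the unadjusted threshold. Leaving out A10 replicate 1 gave 0 calls among the ribosomal protein genes and 1 lower among the small nucleolar RNA genes. Of 23 HOX cluster genes 3 were higher and 1 lower (3 and 0 without A10 replicate 1), and HOXB3 read 6.71, 6.88 and 6.83 in A10, against 6.17, 6.23 and 6.23 in A30 and 6.38, 6.31 and 6.34 in B21. Among 407 zinc finger genes with a ZNF symbol 22 were lower (5.41%, against 4.20% of all tested genes) and 10 higher, with 31 lower and 9 higher without A10 replicate 1. Of the 22 lower ones, 18 lie on chromosome 19, which holds 195 of the 407 and none of the 10 higher ones. Those 18 are 9.23% of the 195, against 8.18% of all tested genes on that chromosome.

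Set against the range of the 3 wild-type line means, the called genes fell into different arrangements. The genes were chosen for A10 lying apart from A30 and B21, and that choice bears on which arrangements are frequent. Shares over all tested genes were not computed, so the percentages only describe the called genes. Of the 333 higher genes, the A10 mean lay outside that range with A30 and B21 inside it in 37 (11.1%), and A30 and B21 lay below it with A10 inside in 97 (29.1%). All 3 lay outside on the same side in 12, and A10 lay above the range with A30 and B21 below it in 106 (31.8%). The remaining 81 (24.3%) had other arrangements. With the sides turned round, the 407 lower genes gave 49 (12%), 123 (30.2%), 23, 135 (33.2%) and 77 (18.9%). Without A10 replicate 1 there were 49 of 313 higher genes (15.7%) and 65 of 420 lower ones (15.5%) with A10 alone outside, and 63 (20.1%) and 83 (19.8%) with A30 and B21 outside and A10 inside. MMP16 and PURPL had A10 alone outside the range. MMP13 and SHISA2 had A30 and B21 outside it and A10 inside, TNC and FN1 had all 3 lines above it, and KRT19, PAMR1 and CD44 had the lines on opposite sides.

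A10 was not the only line that differed from its fellows. By the same rule, A10 differed from A30 and B21 in 740 genes, A30 from A10 and B21 in 551, and B21 from A10 and A30 in 216. Among the wild-type lines N8 differed from both others in 810 genes, parental in 30 and N4 in 21. Without A10 replicate 1 the counts were 733, 590 and 245 for A10, A30 and B21, and 977, 56 and 49 for N8, parental and N4. A line with its own gene differences from both fellow lines was thus present within each genotype, and these counts share arrays with one another.

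Calls clustered along chromosomes. Chromosome 13 had 42 of 170 tested genes higher in A10 (24.7%), chromosome 15 had 61 of 308 (19.8%), chromosome 20 had 36 of 273 (13.2%) and chromosome 9 had 29 of 419 (6.92%), against 3.44% over all tested genes. On the lower side, chromosome 18 had 28 of 144 (19.4%), chromosome 11 had 76 of 557 (13.6%) and chromosome 19 had 63 of 770 (8.18%), against 4.20% over all. In fits lacking A10 replicate 1 these became 36 (21.2%), 65 (21.1%), 39 (14.3%) and 31 (7.40%) on the higher side, and 27 (18.8%), 67 (12%) and 52 (6.75%) on the lower. That array also sets which other chromosomes stand out. Without it chromosome 22 had 21 of 243 genes higher (8.64%), against 7 with it, and chromosome 7 had 56 of 472 lower (11.9%), against 26, and chromosome 8 had 28 of 340 (8.24%), against 13. Chromosomes 13, 15, 20 and 9 hold 12.1% of tested genes and 168 of the higher calls (50.5%). Chromosomes 18, 11 and 19 hold 15.2% of tested genes and 167 of the lower calls (41%). These chromosomes were picked for their shares of the same calls. An excess over their share of tested genes follows from that choice and is no separate result. Chromosome 9 also had 20 genes lower (4.77%), and 26 (6.21%) without A10 replicate 1.

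The runs of 41 neighbouring genes given here were picked for large medians of these same differences. That most members of such a run shifted to the same side follows from that choice and is no separate result. From MIR17HG to TFDP1 on chromosome 13 the median A10 difference was 0.42 from A30 and 0.52 from B21, and 24 genes were called higher and 34 lay above both lines. The run from DMXL2 to RBPMS2 on chromosome 15 had medians of 0.36 and 0.33 and 19 higher calls. On chromosome 11 the run from ZNF195 to TEAD1 had medians of -0.29 and -0.30 and 17 lower calls, and on chromosome 18 the run from PSTPIP2 to DSEL had -0.29 and -0.25 and 15. Chromosome 9 held runs of both directions, HABP4 to HSDL2 with 18 higher calls and WDR38 to ZER1 with 13 lower calls.

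Against the wild-type lines, the chromosome 13 run had a median difference of 0.20 for A10, -0.11 for A30 and -0.22 for B21. In the same order of lines, the medians were 0.24, -0.13 and -0.09 for the chromosome 15 run, -0.03, 0.24 and 0.18 for the chromosome 11 run, and 0.04, 0.30 and 0.27 for the chromosome 18 run. Over all tested genes of chromosome 13 the median difference from the wild-type lines was 0.042 in A10, -0.072 in A30 and -0.217 in B21. On chromosome 18 it was -0.004 in A10, against 0.216 in A30 and 0.173 in B21. On chromosome 19 it was -0.037 in A10, against 0.116 in A30 and 0.067 in B21. With each gene centred on its 41 neighbours, 299 genes were called, 118 higher and 181 lower, of which 259 were among the 740. Of the 168 higher calls on chromosomes 9, 13, 15 and 20, 25 were also called after centring, and of the 167 lower calls on 11, 18 and 19, 34 were. The part of chromosome-wide shifts in single genes' differences was not tested.

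**Figure D4:**
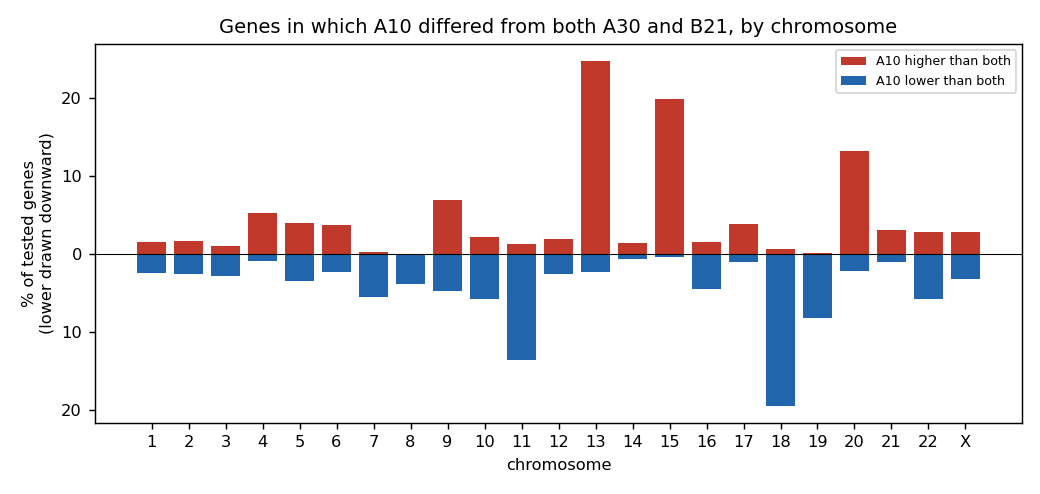
Share of tested genes on each chromosome (x axis) that were higher (upward, % of tested genes) or lower (downward) in A10 than in both A30 and B21. Chromosomes 13 and 15 stand highest upward at 24.7% and 19.8%, and chromosomes 18 and 11 reach furthest downward at 19.4% and 13.6%.

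A10 replicate 1 was also placed against the genes called from A10 replicates 2 and 3. The A30 and B21 means it is set against are those used in choosing these genes, so the shares describe where the array lay and are no independent check. Of those 733 genes, replicate 1 lay on the same side of both the A30 and the B21 mean in 626 (85.4%) and on the opposite side of both in 65. Its distance from the mean of A30 and B21 was a median of 72.2% of that of replicates 2 and 3, with quartiles of 37.1% and 101%. Leaving out replicate 2 or replicate 3 in the same way gave 534 of 546 (97.8%) and 551 of 561 (98.2%) on the same side, with median distances of 90.0% and 85.5%. For the 24 genes called at 1 log2 unit or more without replicate 1, it lay on the same side in 22, at a median of 64.0% of the distance.

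Some genes separated A10 only when replicate 1 was left out. ENPP2, which encodes autotaxin, the enzyme that makes lysophosphatidic acid, averaged 7.28 over all A10 arrays, against 8.07 in A30 and 7.70 in B21, with adjusted p = 0.129 and 0.493. The calls without replicate 1 rested on differences of -1.38 and -1.01. CRABP2, a retinoic acid carrier gene, read 7.15, 6.38 and 6.31 in A10, against 7.16, 6.99 and 7.17 in A30 and 7.49, 7.10 and 6.97 in B21. EEF1A2, a translation elongation factor gene, read 7.24, 6.14 and 6.38 in A10, against 7.58, 7.45 and 7.66 in A30 and 7.12, 7.09 and 6.82 in B21. In both genes replicate 1 lay among the arrays of the other lines, and the other two A10 arrays lay below them. MME, the gene of the kidney surface peptidase neprilysin, read 6.54, 7.06 and 7.18 in A10, against 6.10, 6.23 and 6.25 in A30 and 6.71, 6.52 and 6.70 in B21, and its differences without replicate 1 were 0.93 and 0.48.

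**Figure D5:**
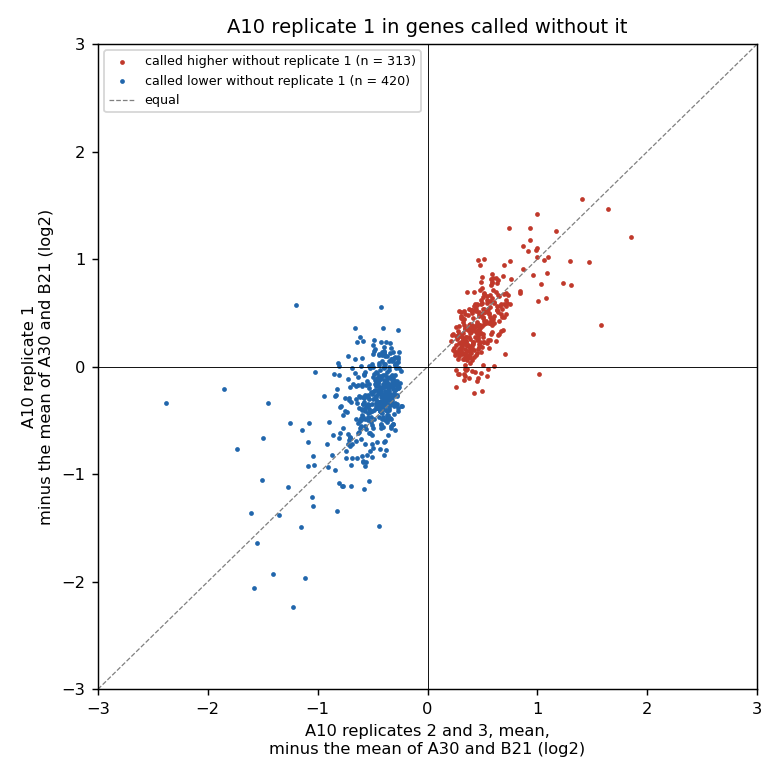
For the 733 genes called without A10 replicate 1, the difference of replicates 2 and 3 from the mean of A30 and B21 (x axis, log2) and that of replicate 1 (y axis, log2), with the line of equality dashed. Most points lie on the same side of 0 on both axes, and PURPL, DPYD and ENPP2 are among those with a large distance on x and little, or the opposite, on y.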

How the data were processed

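Total RNA from 18 cultures (6 HEK lines, 3 replicates each) was read on Affymetrix arrays. The deposited table holds log2 expression. Affymetrix Expression Console is the tool named in the submitters' processing notes, with no version or setting. Values ran from 0.57 to 14.84. Of 53617 probe sets, 16098 carry 1 gene symbol, 0 several and 37519 none here. The probe set with the highest mean stood for each of 14884 genes (779 have several), and 9686 reaching 5.6, the 40th percentile, in at least 3 arrays were tested.

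limma 3.58.1 in R 4.3.3 fitted 6 line means over all arrays, with Benjamini-Hochberg adjustment over all tested genes in each contrast. The number of arrays limits the precision. The procedure was tested on simulated data. Genes named in the text were ATXN1L, ATXN1 and CIC, the 12 higher and 12 lower genes with the largest smaller-of-two difference, up to 3 called members of each list, and up to 5 in each direction called only without A10 replicate 1. List counts also name further called members, and ETV1, ETV4, MIR222 and single markers were added after their values were seen. The members and gene lists were chosen with earlier results of these data known. Neighbour order came from RefSeq (GRCh38.p14) gene names, and centring subtracted the median of 41 neighbouring tested genes. Replicate numbers have no stated shared origin and were not taken as pairs. Over same-numbered arrays of different knockout-labelled lines, deviations from line means correlated at 0.0438 to 0.381 (median 0.206), over 0.1 in 8 of 9 pairs. Over differently numbered ones they correlated at -0.348 to 0.165 (median -0.127), over 0.1 in 3 of 18. The main fit thus leaves out a likeness by replicate number, and a fit with that number as a block is given below.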

Additional observations from a re-analysis of the deposited data

Results flagged for a closer look

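In 8 of the named genes A10 and the other knockout-labelled lines departed from the wild-type mean in opposite directions, with each departure past the limma threshold and A10 called against both lines. They belong to 36 genes of this kind, 24 higher and 12 lower in A10, of which all 36 were also called without A10 replicate 1 and 9 of the higher ones lie on chromosome 13. Differences from the average of the 3 wild-type lines are given for A10, then A30, then B21. They need not lie outside the range of the wild-type line means, which held the A10 mean of RNF180 and the A30 mean of ARGLU1. RNF180, a ubiquitin ligase gene, stood at 0.57, -0.99 and -1.14, so A10 minus the mean of A30 and B21 was 1.635. ENPEP, the aminopeptidase A gene, stood at 0.59, -1.63 and -0.36, a difference of 1.582. For CLGN, the calmegin gene, the values were 0.26, -1.71 and -0.68, a difference of 1.455. ENPEP and CLGN lie on chromosome 4, where the median over tested genes was -0.4 in A30. LINC00649 gave 0.74, -0.44 and -0.69, a difference of 1.303. SYT1 gave 0.52, -0.79 and -0.57, a difference of 1.20. CHAMP1 (0.54, -0.57 and -0.37, difference 1.013) and ARGLU1 (0.57, -0.34 and -0.46, difference 0.97) both lie on chromosome 13. CD44, the hyaluronan receptor gene, was the one lower in A10, at -0.56, 0.48 and 1.12, a difference of -1.353.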

How the results depend on the processing

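With all arrays 740 genes separated A10 from both lines. The count was 527 without the filter on dim genes, 726 with a stricter one, 782 after quantile normalisation (396 higher, 386 lower, against 333 and 407), 728 with probe sets averaged and 807 with an intensity trend and robust prior. Leaving out 1 array at a time gave 499 to 733 genes, with 1646 to 2114 against A30 and 775 to 1273 against B21, where the lowest values, 775 and 794, came without B21 replicate 2 and replicate 3. Fitting only the 9 knockout-labelled arrays gave 836 against B21 and 493 against both. An adjusted p under 0.01 gave 1176 against A30, 595 against B21 and 328 against both, and requiring at least 1.5-fold gave 367, 203 and 110. Centring on neighbouring genes gave 1093, 521 and 299. With the replicate number as a block, 1085 genes were called, all 740 among them, and 1037 without A10 replicate 1, but the numbers share no stated origin and 8 of 9 knockout-labelled arrays correlated best with their own number, which is a hint from the data only. None of the 740 was called in the opposite direction in any of these fits. Uncalled genes near 0 changed sign. Without single arrays, the A10 difference from the mean of A30 and B21 ran from -0.115 to 0.015 for ATXN1L (sign changed without A10 replicate 1), from -0.0733 to 0.0167 for CIC (without A10 replicate 3), from -0.0183 to 0.1617 for CLDN5 (without A10 replicate 2) and from -0.08 to 0.0275 for LUM (without A10 replicate 3, A30 replicate 1 or B21 replicate 3, at 0.015, 0.0275 and 0.0092). After centring it was 0.0856 for CIC and 0.0319 for RPL24. The stricter thresholds give fewer calls by construction, and the causes of the other shifts were not tested.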
